A study of Mus musculus with 32 samples.

Results

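The late 2iL course is the stretch from 84 to 96 h after withdrawal of 2iL from E14 mouse embryonic stem cells, set against the stretch from 60 to 72 h of the same course. It rests on 8 of the 32 libraries of the series, chosen by their labelled course and time alone: 4 later libraries (2 at 84 h and 2 at 96 h) against 4 earlier ones (2 at 60 h and 2 at 72 h). Per the labels, the line E14 derives from a blastocyst, and all 8 libraries come from cells kept in N2B27 medium with 2iL, which holds 3 uM CHIR99021, 1 uM PD0325901 and LIF. The cells were plated as single cells on gelatin, 2iL was replaced by N2B27 alone the next day, and the cells were collected at the stated hour. A second course of the series started from 2i, the same inhibitors without LIF, and its libraries at 60, 72 and 84 h (2 each) serve one comparison below. No genotype other than that of the line is given, and 1 line was used. The labels do not state how replicates were obtained. The p-values measure only the spread between libraries of the same course and time, pooled over all 32 libraries of the series. That spread may be technical. Time since withdrawal and time in culture go together in this comparison and cannot be told apart.

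CHIR99021 inhibits the kinase GSK3 and so stabilises beta-catenin, PD0325901 inhibits MEK and so blocks ERK signalling, and LIF acts through STAT3. Together they hold mouse embryonic stem cells in a naive state that resembles the epiblast before implantation. Once they are gone, cells in serum-free N2B27 pass through a formative state like that of the early postimplantation epiblast, and without added mesoderm or endoderm signals many go on towards neural ectoderm.

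Messenger RNA was counted from the 3' end of transcripts, so levels are given in CPM (counts scaled to a common library size over genes, with TMM factors) and are compared between libraries rather than between genes. The defining markers of the labelled cells were detected in all 8 libraries, but not all were steady. Sox2 had 230.5 to 389 CPM, Sall4 170.1 to 265.2 CPM and Lin28a 351 to 446 CPM. Pou5f1 ranged from 17.9 to 176 CPM, Utf1 from 25.67 to 236 CPM and Dppa4 from 137.5 to 711.5 CPM. The falls of Utf1 and Dppa4 are described below. The later libraries held 1466548 to 2289887 counts and the earlier ones 1985323 to 2574259. A count of 0 allows up to 3 counts, and this floor covers counting error only. 84 h replicate 2 and 96 h replicate 1 stood apart from their partners. The correlation of log2 CPM across genes between partners was 0.947 at 84 h and 0.946 at 96 h, against 0.975 at 60 h and 0.974 at 72 h. The replicate 1 minus replicate 2 differences at 84 h and at 96 h correlated across genes at -0.403, so 84 h replicate 2 and 96 h replicate 1 deviated together from their partners. The value would be the same had the partners deviated, so it cannot tell which of the 2 pairs is the odd one. Leaving out the partners together was not run. All comparisons below are also given without 84 h replicate 2 and 96 h replicate 1. Reads outside annotated genes made up 42.4 to 53.8% of uniquely aligned reads in the later libraries and 30.6 to 42.1% in the earlier ones, and mitochondrial genes took 0.245 to 0.388% of counts against 0.499 to 0.58%. The groups of 4 do not overlap in either share (two-sided exact permutation p = 0.0286, the smallest that 70 arrangements allow, adjusted p = 0.0999 over 7 measures). Gm42418, a locus that holds ribosomal RNA sequence, took 14.3 to 18.1% of counts in the later libraries and 9.7 to 15.2% in the earlier ones (exact permutation p = 0.0571). The part of these shares in the results below was not tested.

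Of 11761 genes tested, 3676 (31.3%) differed between 84 and 96 h and 60 and 72 h at an adjusted p under 0.05 (edgeR quasi-likelihood test, Benjamini-Hochberg adjustment over all genes). Of these, 1841 (15.7% of genes tested) were higher and 1835 (15.6%) lower at 84 and 96 h, and 959 were at least 2-fold higher and 528 at least 2-fold lower. Counts of list members in the sections below are to be read against these shares of 15.7% and 15.6%. In 1164 genes (9.9%) all 4 later libraries lay above all 4 earlier ones, and in 1213 (10.3%) all lay below. Group means rose at each step from 60 to 96 h in 1187 of the called genes that were higher and fell at each step in 1175 of those that were lower, out of 1879 and 1830 such genes among all tested. Without 84 h replicate 2 and 96 h replicate 1 the test called 2284 of 12404 genes, 1068 higher (8.61%) and 1216 lower (9.8%). Of the genes called with all 8 libraries, 951 higher and 1007 lower were called again, and none was called with the opposite sign. The balance of the directions depends on the scaling: DESeq2's size factors within edgeR gave 2590 higher and 1179 lower, DESeq2's own test 1262 and 508, and a fit of the 2iL course only 1670 and 959. The median log2 change of all genes was 0.016 with TMM and 0.159 with DESeq2's size factors, and 0.099 with the latter once the shallow library, 2iL 36 h replicate 2, was left out. Changes of about that size therefore have no firm sign.

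**Figure D1:**
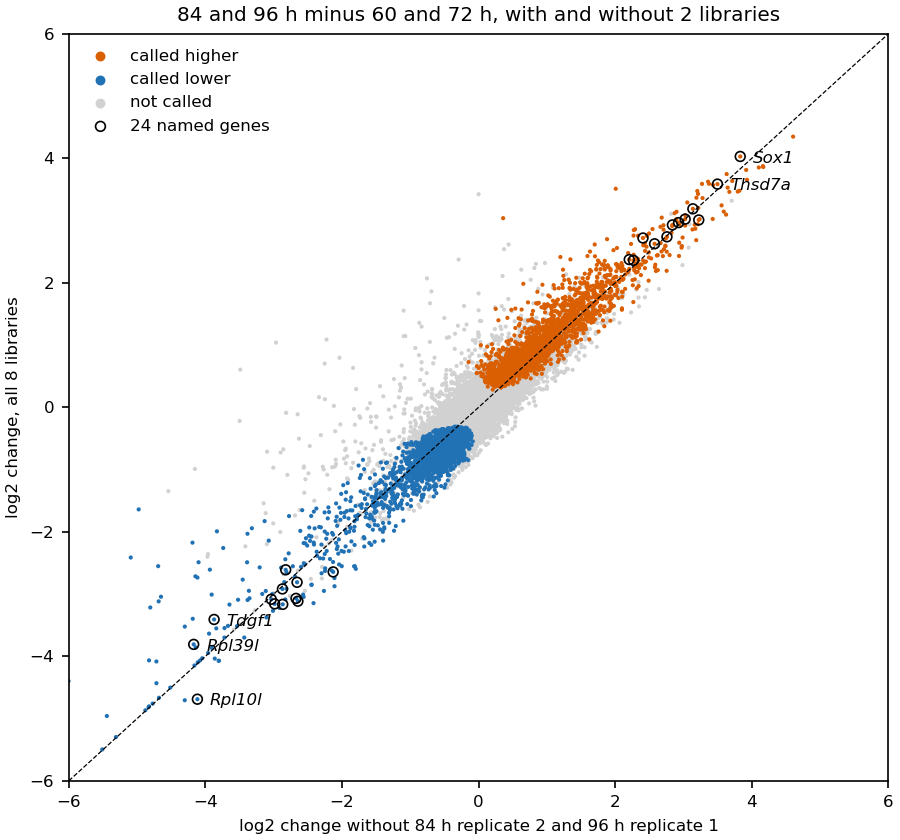
Log2 change of 84 and 96 h minus 60 and 72 h with all 8 libraries (y axis) against the change without 84 h replicate 2 and 96 h replicate 1 (x axis), for the genes with a value in both fits. Orange and blue points were called higher and lower with all 8 libraries. Open circles are the 12 largest rises and 12 largest falls within the limits on level and overlap given in the text. The dashed line marks equal values, and 2 genes lie outside the axes. The circled genes run along the line in both directions.

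The largest rises and falls were ranked among called genes with a mean log2 CPM of at least 3 and no overlap between later and earlier libraries. Of these genes, Sox1, a transcription factor of the early neural plate, rose most (chromosome 8, 12395295 to 12400126, mm10). Sox1 had 29.3 and 36.7 CPM at 84 h and 140.5 and 105 CPM at 96 h, against 1.15 and 2.64 CPM at 60 h and 10.1 and 5.77 CPM at 72 h. The level rose at every step and the groups are far apart, with a log2 change of 4.03 ± 0.24 (SE), or 16.3-fold (adjusted p = 8.63e-14, edgeR). Thsd7a, a membrane protein with thrombospondin repeats, followed with a log2 change of 3.58 and 19.7 and 14.4 CPM at 84 h and 49.3 and 30.3 CPM at 96 h, against 1.15 and 1.06 CPM at 60 h and 5.44 and 2.1 CPM at 72 h. Nuak1, a kinase related to AMPK, had 10.1 and 10.01 CPM at 84 h and 52.7 and 45.4 CPM at 96 h, against 1.92 and 2.11 CPM at 60 h and 1.68 and 4.2 CPM at 72 h. Both genes were above every earlier library at 84 h and higher still in both 96 h libraries. Wls, which carries Wnt proteins to the cell surface for secretion, had 39.4 and 25.02 CPM at 84 h and 89.8 and 114 CPM at 96 h, against 3.06 and 3.17 CPM at 60 h and 17.2 and 14.7 CPM at 72 h, a log2 change of 3.01.

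Sema3c, a secreted semaphorin that guides axons and migrating cells, and Stmn4, a stathmin that binds tubulin and is made in neurons, rose by 3.02 and 2.97 on the log2 scale. Ptn, a secreted heparin-binding growth factor, had 34.6 and 48.4 CPM at 84 h and 94.6 and 107 CPM at 96 h, against 8.43 and 6.34 CPM at 60 h and 20.9 and 20.99 CPM at 72 h. The remaining genes among the 12 largest rises were Greb1l (2.93), the transcriptional repressor Bhlhe41 (2.74), Scrn1 (2.72), the zinc finger homeobox factor Zfhx4 (2.63) and the Notch coactivator Maml3 (2.37), all as log2 changes. All 12 kept their call without 84 h replicate 2 and 96 h replicate 1, where the log2 changes ranged from 2.21 for Maml3 to 3.83 for Sox1. Several of these genes overlap other annotated genes, and the strand setting of the counting is not given in the sources used here. For Thsd7a, Wls, Greb1l, Bhlhe41, Scrn1, Zfhx4 and Maml3 an overlapping gene lies on the opposite strand, so its reads cannot be told apart from theirs without that setting.

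With the same limits on level and overlap, the largest fall was that of Rpl10l, a copy of the ribosomal protein gene Rpl10 known for its role in spermatogenesis. Rpl10l had 15.4 and 6.12 CPM at 84 h and 0 and 1.59 CPM at 96 h. At 60 h it had 141 and 156 CPM and at 72 h 44.8 and 59.8 CPM. It fell by 4.69 on the log2 scale (SE 0.36, adjusted p = 1.84e-11, edgeR), 25.8-fold lower at 84 and 96 h. Rpl39l, the testis copy of Rpl39, had 5.86 and 5.003 CPM at 84 h and 1.35 and 0.399 CPM at 96 h, against 64.8 and 57.05 CPM at 60 h and 13.8 and 15.2 CPM at 72 h. Both resemble their parent genes closely, so the counting of unique reads could split their reads with them, and their levels are uncertain to that extent. Tdgf1, the Nodal co-receptor also called Cripto, had 2.13 and 4.45 CPM at 84 h and 2.03 and 1.2 CPM at 96 h, against 55.9 and 54.9 CPM at 60 h and 7.54 and 14.2 CPM at 72 h. Most of its fall lay between 60 and 72 h, and the later libraries were near the floor.

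Tex19.1, a mammalian germ cell and placenta gene that restrains retrotransposons, had 19.7 and 10.6 CPM at 84 h and 2.7 and 4.38 CPM at 96 h, against 89.3 and 104 CPM at 60 h and 36.01 and 61.9 CPM at 72 h. Dppa2, a chromatin factor of pluripotent cells, had 14.4 and 11.1 CPM at 84 h and 1.35 and 1.99 CPM at 96 h, against 60.9 and 60.2 CPM at 60 h and 26.8 and 34.6 CPM at 72 h. Tdh, the threonine dehydrogenase that feeds one-carbon metabolism in mouse embryonic stem cells, had 45.2 and 19.5 CPM at 84 h and 8.11 and 15.9 CPM at 96 h, against 252 and 252 CPM at 60 h and 99.2 and 134 CPM at 72 h. Levels of these 3 genes fell at each step and reached their lowest values at 96 h. The same order held for the long noncoding RNA Lncenc1, with 15.4 and 24.5 CPM at 84 h and 3.38 and 11.2 CPM at 96 h, against 167 and 203 CPM at 60 h and 54.9 and 71.9 CPM at 72 h. The kinase gene Sgk1 (-3.11), the alpha-tubulin gene Tuba3a (-2.92), the cofactor of de novo DNA methylation Dnmt3l (-2.81), the transcription factor Foxd3 (-2.64) and Slfn9 (-2.61) complete the 12 largest falls, as log2 changes. All 12 kept their call without the 2 libraries that stood apart, with log2 changes of -2.13 for Foxd3 to -4.17 for Rpl39l. Lncenc1, Tdh, Tuba3a and Dnmt3l overlap an annotated gene on the opposite strand.

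Of 19 naive genes tested, 10 were lower and 2 higher at 84 and 96 h, with a median log2 change of -1.43, against 15.6% lower and 15.7% higher and a median of 0.016 over all genes tested. Without the 2 libraries 7 were lower and 2 higher. DESeq2 called 6 lower and 1 higher. Zfp42, the marker also called Rex1, had 5.86 and 6.67 CPM at 84 h and 1.35 and 1.2 CPM at 96 h, against 26.4 and 23.2 CPM at 60 h and 4.19 and 7.35 CPM at 72 h. Fgf4, the growth factor that naive cells secrete, had 31.9 and 63.4 CPM at 84 h and 6.75 and 5.18 CPM at 96 h, against 87.4 and 104 CPM at 60 h and 55.3 and 48.3 CPM at 72 h. Klf2, a Krüppel-like factor, fell at each step and had 19.2 and 10.01 CPM at 84 h and 4.73 and 4.38 CPM at 96 h, against 30.6 and 31.2 CPM at 60 h and 24.3 and 20.99 CPM at 72 h. Esrrb and Nr5a2, nuclear receptors of the naive network, were called lower at levels of at most 13.7 CPM in any of the 8 libraries. The other called falls were those of Tcl1, Klf5, Stat3, Dppa5a and Spp1, of which Klf5, Stat3 and Esrrb were not called without the 2 libraries. In a bulk sample, fewer cells of a type and less RNA per cell cannot be told apart.

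Nanog and Tbx3 were the 2 naive genes called higher. Nanog, a homeobox factor of the naive network, had 12.8 and 7.78 CPM at 84 h and 10.8 and 24.7 CPM at 96 h, against 6.13 and 8.98 CPM at 60 h and 7.12 and 6.82 CPM at 72 h, and the groups overlap. Its log2 change was 0.95 ± 0.26 (adjusted p = 0.00654, edgeR), from levels far below the 197 CPM measured on average before withdrawal. Tbx3, a T-box factor, had 2.66 and 1.11 CPM at 84 h and 14.2 and 15.5 CPM at 96 h, against 0.766 and 2.64 CPM at 60 h and 4.61 and 2.62 CPM at 72 h, so it was high at 96 h alone. Neither call is firm: Nanog was not called in 4 of 22 alternative settings and Tbx3 in 10 of 22. Leaving out 84 h replicate 1 or 96 h replicate 2 removed both calls, and leaving out 60 h replicate 1, 72 h replicate 2 or 96 h replicate 1 left 1 of them.

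Of 11 general pluripotency genes tested, 6 were lower and none higher (median log2 change -0.96; 7 lower without the 2 libraries). Utf1, a chromatin factor of pluripotent cells, had 112 and 100.1 CPM at 84 h and 25.7 and 36.7 CPM at 96 h, against 236 and 229 CPM at 60 h and 152 and 167 CPM at 72 h. L1td1, an RNA-binding protein of pluripotent cells, had 628 and 763 CPM at 84 h and 193 and 183 CPM at 96 h, against 1085 and 1106 CPM at 60 h and 736 and 926 CPM at 72 h. Dppa4, the partner of Dppa2, and the zinc finger factor Zfp281 fell as well, with log2 changes of -1.46 and -0.96. Pou5f1, which encodes Oct4, was not called. Pou5f1 had 62.3 and 176 CPM at 84 h and 37.1 and 17.9 CPM at 96 h, against 74.7 and 94.02 CPM at 60 h and 59.5 and 61.4 CPM at 72 h, and 84 h replicate 2 was the highest of the 8 libraries. Its log2 change was -0.35 (adjusted p = 0.308) with all 8 libraries and -1.09 (adjusted p = 0.00146) without the 2 that stood apart. Sox2, Sall4, Lin28a and Trim71 did not pass the test, with log2 changes of -0.11, -0.19, -0.09 and 0.05. Sox2, which serves both pluripotent and neural cells, had 230.5 and 277 CPM at 84 h and 334 and 299.7 CPM at 96 h, against 289 and 389 CPM at 60 h and 250 and 305 CPM at 72 h.

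Formative genes were lower in 11 of 15 tested, with a median log2 change of -0.83 (9 lower without the 2 libraries, 7 in a fit of the 2iL course only and 7 by DESeq2). The de novo DNA methyltransferase genes Dnmt3a and Dnmt3b fell, and so did Dnmt3l. Dnmt3a had 346 and 337 CPM at 84 h and 171 and 182 CPM at 96 h, against 891 and 781 CPM at 60 h and 464 and 555 CPM at 72 h. Dnmt3b had 1622 and 1309 CPM at 84 h and 520.1 and 717 CPM at 96 h, against 1994 and 1941 CPM at 60 h and 2014 and 2077 CPM at 72 h, with most of its fall between 84 and 96 h. Dnmt3l had 31.4 and 31.1 CPM at 84 h and 16.2 and 29.5 CPM at 96 h, against 321 and 350.2 CPM at 60 h and 107 and 113 CPM at 72 h, so most of its fall lay before 84 h. Pou3f1, a POU factor of the formative and early neural epiblast, had 401 and 456 CPM at 84 h and 132 and 123 CPM at 96 h, against 468 and 505 CPM at 60 h and 547 and 531 CPM at 72 h, a level that held to 84 h and then dropped by 1.75 on the log2 scale between 84 and 96 h. Otx2, a head and epiblast homeobox factor, had 329.5 and 391 CPM at 84 h and 374 and 336 CPM at 96 h, against 556 and 634 CPM at 60 h and 414 and 427 CPM at 72 h. Fgf5, Lef1, Sox3, Foxd3 and Grhl2 were lower too, and Sox3 was not called without the 2 libraries. Sox3, a SoxB1 factor of the epiblast and neural plate, had 111 and 30.02 CPM at 84 h and 18.9 and 92.8 CPM at 96 h, against 134 and 85.6 CPM at 60 h and 98.8 and 139.6 CPM at 72 h, and was lowest in the 2 libraries that stood apart. The 1 formative gene called higher was Cdh2, N-cadherin, which is also an early neural gene, with 15.4 and 16.1 CPM at 84 h and 12.8 and 23.9 CPM at 96 h, against 8.43 and 4.75 CPM at 60 h and 9.63 and 12.6 CPM at 72 h; it was not called without 96 h replicate 2.

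**Figure D2:**
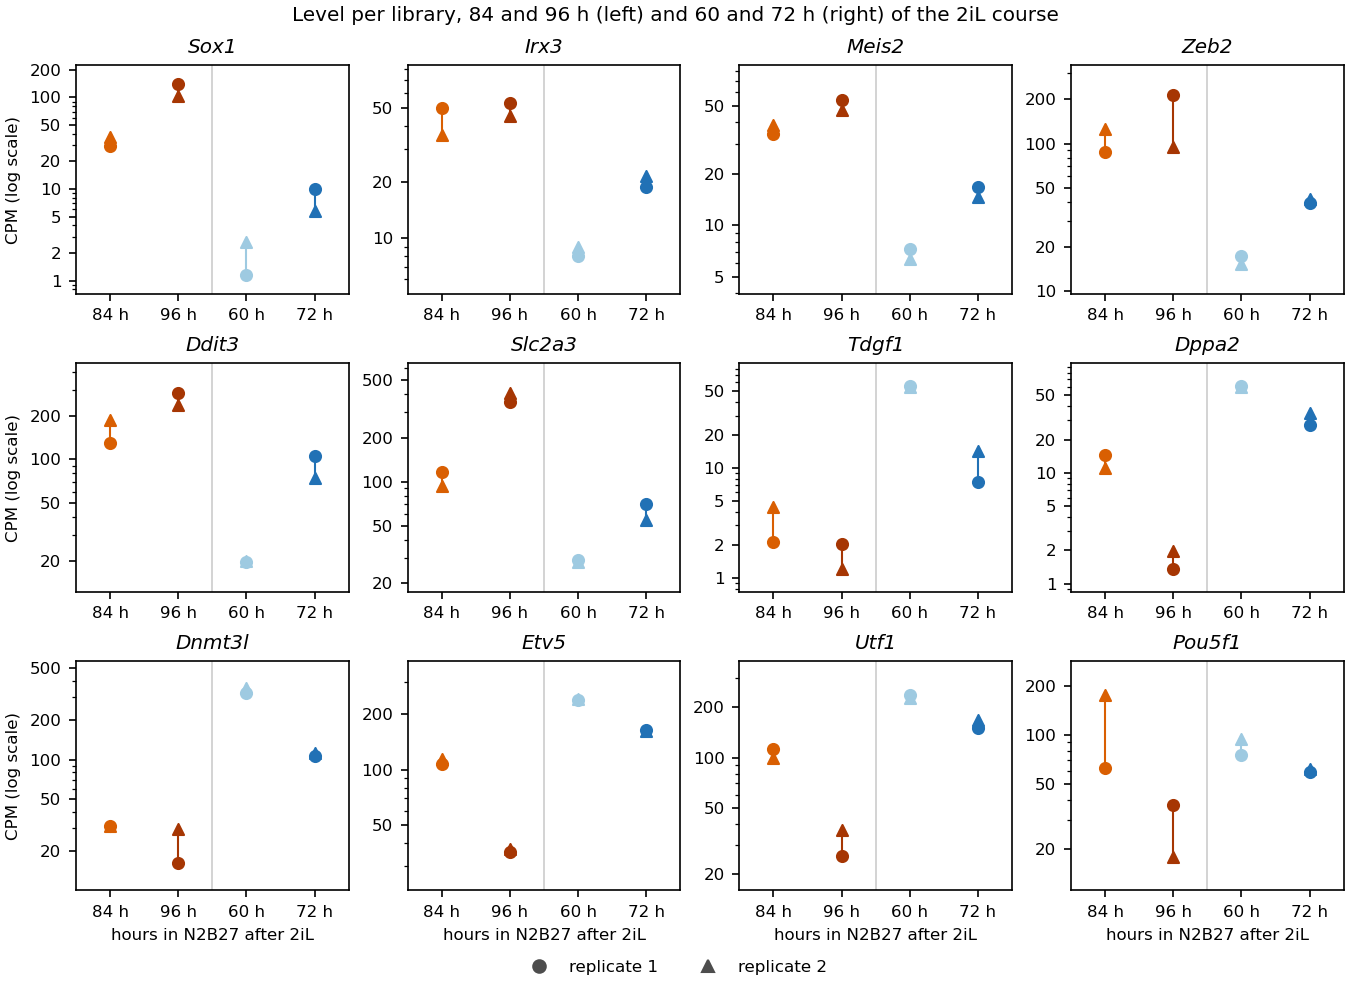
Level of 12 genes in each library, in CPM on a log scale, at 84 and 96 h (left of the grey line) and at 60 and 72 h (right), with replicate 1 as circles and replicate 2 as triangles joined by a line. Sox1, Irx3, Meis2, Zeb2, Ddit3 and Slc2a3 lie higher in all 4 later libraries, Tdgf1, Dppa2, Dnmt3l, Etv5 and Utf1 lower, and Pou5f1 is highest in 84 h replicate 2 with 176 CPM.

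Of 18 genes of the FGF and ERK list tested, 6 were lower and 3 higher at 84 and 96 h (6 and 2 without the 2 libraries). The share called higher is near the 15.7% of all genes. Etv5, an ETS factor induced by ERK, had 107 and 114 CPM at 84 h and 35.8 and 37.5 CPM at 96 h, against 238 and 241 CPM at 60 h and 165 and 162 CPM at 72 h. Spry4, a feedback inhibitor of the pathway, had 6.92 and 12.2 CPM at 84 h and 0.675 and 0.399 CPM at 96 h, against 12.3 and 9.51 CPM at 60 h and 8.37 and 12.1 CPM at 72 h. Etv4 (-0.93) and Spry2 (-1.17) fell too, as did the ligands Fgf4 and Fgf5 (-0.64). For Spry4 and Etv4 the fall lay between 84 and 96 h. The 3 genes called higher were receptors, with log2 changes of 0.69 for Fgfr1, 0.88 for Fgfr2 and 1.76 for Fgfr3, and Fgfr3 was not called without the 2 libraries (adjusted p = 0.0692) or without any 1 of 60 h replicate 1, 72 h replicate 1, 84 h replicate 1 and 84 h replicate 2. Dusp6, the phosphatase of ERK, did not pass the test (-0.67, adjusted p = 0.0903). Neither did Dusp4 (0.08), Spry1 (-0.21), Egr1 (0.27) or Ier3 (-0.12).

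In the BMP list 2 of 9 genes were higher and none lower (edgeR; 5 and 0 with DESeq2's size factors, and 1 lower without 84 h replicate 1 or 96 h replicate 2). Bmp7, a BMP ligand, had 6.92 and 7.78 CPM at 84 h and 37.1 and 33.5 CPM at 96 h, against 3.83 and 4.23 CPM at 60 h and 4.19 and 2.62 CPM at 72 h. Id1, an inhibitor of basic helix-loop-helix factors and a direct BMP target, had 12.2 and 16.1 CPM at 84 h and 27.02 and 32.7 CPM at 96 h, against 4.6 and 5.81 CPM at 60 h and 11.7 and 8.92 CPM at 72 h. Both were called in all alternatives. The share of the BMP list called higher is not far above the 15.7% over all genes tested. In the Nodal list Tdgf1, Nodal (-1.30) and Skil (-0.73) were lower among 8 genes tested. Lefty1, a Nodal antagonist, and the receptor Acvr2b were called higher, but the call of Lefty1 (1.33, adjusted p = 0.0453) was lost in 11 of 20 settings, and leaving out any 1 of 6 of the 8 libraries (all but 60 h replicate 2 and 96 h replicate 1) left 1 gene higher. Lefty1 reached at most 5.56 CPM in the 8 libraries.

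Targets of beta-catenin showed no common direction, with 3 of 12 lower (Lef1, Ccnd1 and Znrf3) and 2 higher (Axin2 and Nkd1). Over all genes tested 15.6% were lower and 15.7% higher, and none of the lists in this paragraph is far from these shares. Lef1, a factor that binds beta-catenin, had 99.01 and 129 CPM at 84 h and 46.6 and 31.1 CPM at 96 h, against 159 and 139 CPM at 60 h and 112 and 121 CPM at 72 h. Axin2, its best known target, had 7.98 and 5.56 CPM at 84 h and 3.38 and 5.98 CPM at 96 h, against 2.68 and 2.64 CPM at 60 h and 1.26 and 3.67 CPM at 72 h, and the groups overlap. Leaving out any 1 library other than 96 h replicate 1 left 0 or 1 of the 2 rises. In the retinoic acid list Meis2, a homeobox factor induced by retinoic acid, was higher in all alternatives, with 34.1 and 38.4 CPM at 84 h and 54.04 and 47.02 CPM at 96 h, against 7.28 and 6.34 CPM at 60 h and 16.8 and 14.7 CPM at 72 h. Cyp26b1, an enzyme that degrades retinoic acid, was called higher and the binding protein Crabp2 lower, the first not without 60 h replicate 1, 72 h replicate 2 or 84 h replicate 2 and the second not without 84 h replicate 2 or 96 h replicate 1. Crabp2 had 34.6 and 7.78 CPM at 84 h and 12.8 and 39.05 CPM at 96 h, against 42.9 and 49.1 CPM at 60 h and 40.2 and 47.8 CPM at 72 h, with both libraries that stood apart at the bottom. Of 13 Notch genes 3 were higher (Hes1, Hes5 and Lfng) and none lower, 1 was higher without the 2 libraries or without 96 h replicate 1, and 1 was lower without 96 h replicate 2.

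Of 12 early neural genes tested, 6 were higher, 1 was lower and 5 did not pass the test at 84 and 96 h, with a median log2 change of 0.92, and 5 were higher without the 2 libraries. All 4 later libraries lay above all 4 earlier ones in 6 of the 12, against 9.9% of all genes tested. Irx3, a homeobox factor of the posterior neural plate, had 49.5 and 35.6 CPM at 84 h and 52.7 and 45.03 CPM at 96 h, against 8.05 and 8.98 CPM at 60 h and 18.8 and 21.5 CPM at 72 h. Ncam1, a neural cell adhesion molecule, had 51.6 and 62.3 CPM at 84 h and 109 and 90.05 CPM at 96 h, against 26.4 and 17.96 CPM at 60 h and 45.6 and 32.01 CPM at 72 h. Sox11, a SoxC factor of neural progenitors, had 689 and 640.4 CPM at 84 h and 1035 and 957 CPM at 96 h, against 428 and 377 CPM at 60 h and 502 and 533 CPM at 72 h. Hes5, a Notch effector of neural progenitors, had 7.98 and 5.003 CPM at 84 h and 14.2 and 10.8 CPM at 96 h, against 3.06 and 3.17 CPM at 60 h and 5.03 and 6.82 CPM at 72 h, and its call was lost in 9 of 22 settings. Pax6, Nes, Sox4, Zic1 and Fabp7 did not pass the test. The 1 member called lower, Zic5 (-0.41, adjusted p = 0.0427), was not called without any 1 of 6 of the 8 libraries.

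Genes of postmitotic neurons did not move together, with 2 of 11 higher (Map2 and Elavl3) and 3 lower (Neurod1, Ina and Crmp1). Both shares are not far from those over all genes tested, 15.7% higher and 15.6% lower. Tubb3, a neuronal tubulin, had 206 and 334 CPM at 84 h and 255 and 170.5 CPM at 96 h, against 136 and 142 CPM at 60 h and 179 and 269 CPM at 72 h and did not pass the test (adjusted p = 0.0837). Elavl3 was not called without any 1 of 7 of the 8 libraries (all but 96 h replicate 1). Of 8 primitive streak and mesoderm genes none was called (edgeR), and 2 were called higher without 84 h replicate 2. T, or Brachyury, Eomes, Gsc and Foxa2 had log2 changes of 1.81, -0.07, 2.94 and -1.36 with adjusted p of at least 0.0667, and the 12 listed genes summed to 3.53 to 18 CPM in the later libraries and 5.47 to 10.8 CPM in the earlier ones. Hox genes summed to 2.25 to 13.6 CPM against 2.33 to 6.91 CPM. The only Hox gene called, Hoxb4, was not called without any 1 of 6 of the 8 libraries.

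Epithelial junction genes moved in both directions. Of 14 genes of epithelial junctions tested, 6 were higher and 4 lower (6 and 3 without the 2 libraries). The claudin gene Cldn3 had 21.3 and 21.7 CPM at 84 h and 39.9 and 50.2 CPM at 96 h, against 3.06 and 2.11 CPM at 60 h and 14.7 and 16.3 CPM at 72 h. Cldn7 had 87.3 and 65.6 CPM at 84 h and 74.98 and 85.3 CPM at 96 h, against 16.1 and 19.02 CPM at 60 h and 57.4 and 53.5 CPM at 72 h. Cldn4 and the desmosomal plakin gene Dsp rose as well, with log2 changes of 0.86 and 1.52, and so did the keratin genes Krt8 (2.93) and Krt18 (0.90). Cdh1, E-cadherin, had 850.1 and 507 CPM at 84 h and 367 and 525 CPM at 96 h, against 1038 and 871 CPM at 60 h and 859 and 1014 CPM at 72 h. Epcam (-0.51), the splicing regulator Esrp1 (-0.62) and Jup (-0.72) fell with it, and Jup was not called without the 2 libraries. In the mesenchymal list 4 of 13 were higher and 3 lower. Zeb2, a repressor of Cdh1, had 88.4 and 125 CPM at 84 h and 213 and 94.8 CPM at 96 h, against 17.2 and 15.3 CPM at 60 h and 39.8 and 41.98 CPM at 72 h. Zeb1 and Cdh2 were also higher, Col1a2 was called at no more than 3.99 CPM, Zeb1 and Col1a2 were not called without the 2 libraries, and leaving out 96 h replicate 2 left 2 of the 4 rises. Vim, vimentin, Fn1, fibronectin, and Foxd3 were lower, with 64.4 and 107 CPM at 84 h and 82.4 and 87.7 CPM at 96 h, against 161 and 173 CPM at 60 h and 77.5 and 94.97 CPM at 72 h for Vim. Of 13 matrix genes 5 were higher and 2 lower, and the basement membrane collagens led the rises: Col4a1 had 28.7 and 37.2 CPM at 84 h and 55.4 and 45.8 CPM at 96 h, against 8.81 and 8.45 CPM at 60 h and 23.9 and 22.6 CPM at 72 h. Sparc had 421 and 611 CPM at 84 h and 979 and 688 CPM at 96 h, against 329 and 392 CPM at 60 h and 319 and 314 CPM at 72 h. The 2 falls, Fn1 and Nid2, were 1 without 60 h replicate 1, 84 h replicate 2 or 96 h replicate 2.

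Many genes of the contractile actin cytoskeleton rose. Several of them (Acta2, Tagln, Tpm1, Cald1, Cnn1 and Myl9) were noticed among the changed genes, and the list of 24 was written after that. These genes count among the rises below, and over all genes tested 15.7% were higher and 15.6% lower. Of 23 tested, 15 were higher and 2 lower, and the same 15 were called higher without the 2 libraries. Acta2, smooth muscle actin, had 2.13 and 3.33 CPM at 84 h and 22.97 and 27.9 CPM at 96 h, against 0 and 1.58 CPM at 60 h and 0.419 and 0.525 CPM at 72 h. Tagln, the actin-binding protein transgelin, had 4.26 and 3.33 CPM at 84 h and 30.4 and 37.9 CPM at 96 h, against 0 and 2.64 CPM at 60 h and 4.19 and 1.57 CPM at 72 h. Tpm1, a tropomyosin, had 392 and 466 CPM at 84 h and 1156 and 974 CPM at 96 h, against 178 and 192 CPM at 60 h and 295 and 319 CPM at 72 h. Cald1, caldesmon, had 216 and 265 CPM at 84 h and 598 and 496 CPM at 96 h, against 85.4 and 88.2 CPM at 60 h and 150.3 and 141 CPM at 72 h. Acta2 and Tagln were near the floor up to 84 h and high at 96 h in both replicates, whereas Tpm1 and Cald1 rose at each step. Cnn1, calponin, had 34.6 and 49.5 CPM at 84 h and 81.05 and 68.5 CPM at 96 h, against 11.1 and 14.3 CPM at 60 h and 28.1 and 24.7 CPM at 72 h, and the myosin light chain gene Myl9 had 38.3 and 74.5 CPM at 84 h and 99.97 and 64.2 CPM at 96 h, against 10.3 and 13.2 CPM at 60 h and 32.2 and 24.1 CPM at 72 h. Lmod1, Myh9, Pdlim7, Csrp1, Tpm4, Flna, Smtn, Tpm2 and Cnn2 were the others called higher. Tpm3 (-0.41) and Actn4 (-0.62) were called lower, and neither was without the 2 libraries, without 84 h replicate 2 or without 96 h replicate 1. One fall was left without 60 h replicate 2 or 72 h replicate 2 and none without 60 h replicate 1.

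**Figure D3:**
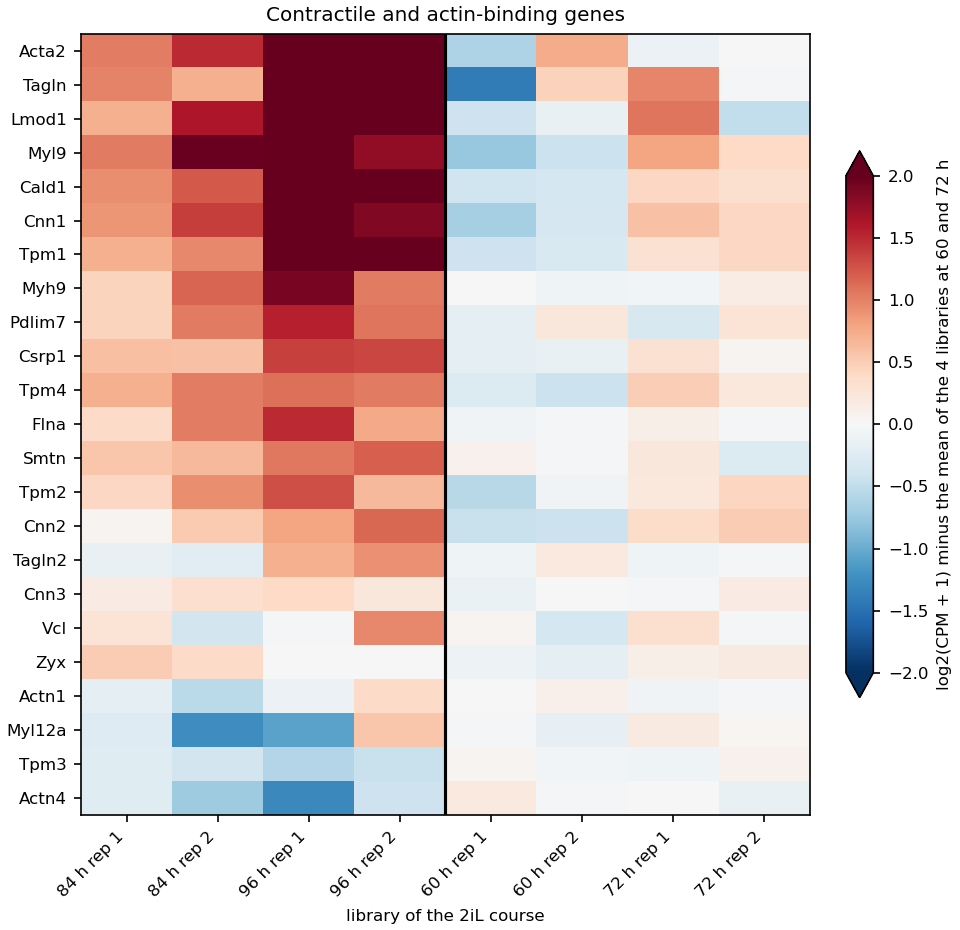
Level of 23 contractile and actin-binding genes in the 8 libraries, as log2(CPM + 1) minus the mean of the 4 libraries at 60 and 72 h (colour, cut at -2 and 2), with 84 and 96 h left of the black line. Genes run from the largest rise to the largest fall. In the top rows (Acta2, Tagln and Lmod1) both 96 h libraries are darkest, with Acta2 at 22.97 and 27.9 CPM at 96 h.

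Of 15 S phase genes tested, 11 were lower and none higher (median log2 change -0.56), and 6 were lower without the 2 libraries. The count was also 5 without 60 h replicate 1, 7 without 72 h replicate 2 or without 96 h replicate 1, 6 with DESeq2's size factors and 4 by DESeq2. Ccne1, cyclin E1, had 53.8 and 76.2 CPM at 84 h and 31.1 and 40.6 CPM at 96 h, against 144 and 118 CPM at 60 h and 94.2 and 102 CPM at 72 h. Rrm2, a subunit of ribonucleotide reductase, had 39.9 and 24.5 CPM at 84 h and 24.99 and 35.5 CPM at 96 h, against 77.8 and 63.4 CPM at 60 h and 72.9 and 65.1 CPM at 72 h. These 2 kept their call in all alternatives. Pcna, the sliding clamp, had 59.6 and 26.1 CPM at 84 h and 14.9 and 38.6 CPM at 96 h, against 63.99 and 76.6 CPM at 60 h and 70.8 and 54.05 CPM at 72 h, and the 2 libraries that stood apart were its lowest. Of 18 genes of G2 and mitosis 8 were lower, 1 was higher and 9 did not pass the test, and 5 were lower without the 2 libraries and 2 by DESeq2. Plk1, a mitotic kinase, had 214 and 109 CPM at 84 h and 103 and 168 CPM at 96 h, against 276 and 269 CPM at 60 h and 228 and 258 CPM at 72 h. Ube2c, which works with the anaphase-promoting complex, had 206 and 173 CPM at 84 h and 123 and 204 CPM at 96 h, against 348 and 371 CPM at 60 h and 291 and 301 CPM at 72 h. The 1 rise, Mki67, was not called without any 1 of 6 of the 8 libraries.

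Slc2a3, the glucose transporter GLUT3, rose 2.23 on the log2 scale, with 116 and 93.4 CPM at 84 h and 353 and 406 CPM at 96 h, against 29.1 and 28 CPM at 60 h and 70.3 and 54.6 CPM at 72 h. Vegfa, a growth factor that is also a hypoxia target, had 29.3 and 30.02 CPM at 84 h and 29.7 and 22.7 CPM at 96 h, against 5.75 and 4.75 CPM at 60 h and 19.7 and 17.3 CPM at 72 h. Among the other 16 genes of glycolysis and hypoxia tested none was higher and 3 were lower, and 6 were lower without the 2 libraries. Aldoa (-0.35), Slc16a3 (-0.52) and Pdk1 (-0.65) were the 3 lower, and Ldha, lactate dehydrogenase, joined them without the 2 libraries (-0.47, adjusted p = 0.0134). Of 18 nuclear genes of the respiratory chain 8 were lower and none higher, 4 without the 2 libraries or without 96 h replicate 1, 5 without 60 h replicate 2, 4 with DESeq2's size factors and 1 by DESeq2. Of 11 mitochondrially encoded genes 4 were lower (mt-Nd1, mt-Nd2, mt-Nd4 and mt-Cytb) and none higher, with and without the 2 libraries, and 1 was higher without 96 h replicate 2. The gene mt-Nd2 had 689.8 and 587 CPM at 84 h and 393 and 450.3 CPM at 96 h, against 1242 and 1216 CPM at 60 h and 959.7 and 1118 CPM at 72 h. The transcripts mt-Co1, mt-Co3 and mt-Atp6 had log2 changes of 0.06, -0.09 and 0.13 and did not pass the test.

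In some lists most calls were lost without the 2 libraries that stood apart. Of 20 cytosolic ribosomal protein genes 7 were lower with all 8 libraries and none without those 2, without 84 h replicate 2 alone, without 96 h replicate 1 alone or with DESeq2's size factors. Leaving out any one of the earlier libraries left 1 or 2. Rps18 had 349 and 97.3 CPM at 84 h and 93.2 and 339 CPM at 96 h, against 385 and 338 CPM at 60 h and 424 and 467 CPM at 72 h, which shows the partners apart by more than the later and earlier libraries. In the apoptosis list 5 of 13 genes were lower and Bcl2 was higher, with 2 lower without the 2 libraries or without 96 h replicate 1 and 3 without 60 h replicate 1 or without 84 h replicate 2, and 1 by DESeq2. Bcl2, which guards against cell death, had 13.3 and 16.1 CPM at 84 h and 20.9 and 13.6 CPM at 96 h, against 2.3 and 4.75 CPM at 60 h and 8.37 and 4.2 CPM at 72 h and kept its call in all alternatives. Histone genes with polyadenylated transcripts were called higher in 4 of 12 and lower in 3, and in 2 and 1 without the 2 libraries. Leaving out 84 h replicate 2 left 1 higher, and leaving out 96 h replicate 1 left 1 lower. H1f0, a linker histone of cells that leave the cycle, had 37.8 and 28.9 CPM at 84 h and 47.3 and 60.97 CPM at 96 h, against 6.13 and 9.51 CPM at 60 h and 27.2 and 27.8 CPM at 72 h. Of 17 genes of cholesterol synthesis 1 was higher and 2 lower, and none was called without the 2 libraries. The rise of Mvd was not called without 60 h replicate 1, 72 h replicate 2, 84 h replicate 2 or 96 h replicate 1, and leaving out any 1 library other than 96 h replicate 2 left 0 or 1 of the falls.

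Targets of p53 were called in 3 of 13 (Btg2 and Perp higher, Eda2r lower), each with an adjusted p of at least 0.0243 (edgeR). That is a smaller share than the 31.3% called over all genes tested. Without any 1 of 7 of the 8 libraries 0 or 1 of the 2 rises was left, and the falls numbered 0 to 2. Cdkn1a and Mdm2, the best known targets, had log2 changes of -0.18 and -0.27 and did not pass the test. Of 14 imprinted genes 4 were higher and 1 lower (7 and 1 with DESeq2's size factors), against 15.7% higher and 15.6% lower over all genes tested. Grb10, an adaptor that dampens insulin signalling, had 118 and 108 CPM at 84 h and 129 and 180.5 CPM at 96 h, against 39.5 and 35.9 CPM at 60 h and 90.02 and 102 CPM at 72 h. Nnat and Sgce rose as well, with log2 changes of 2.00 and 2.18, and Impact by 0.43. Peg3 was the 1 imprinted gene called lower and was not called without 60 h replicate 1 or without the 2 libraries, and 2 were lower without 84 h replicate 1 or 96 h replicate 2. Where no member of a list was called in a direction, DESeq2 called none either. At an unadjusted p under 0.05 edgeR gave 1 lower BMP gene, 1 lower Notch gene, 2 higher streak genes and 1 trophectoderm gene in each direction, and none in the other lists described with no call.

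**Figure D4:**
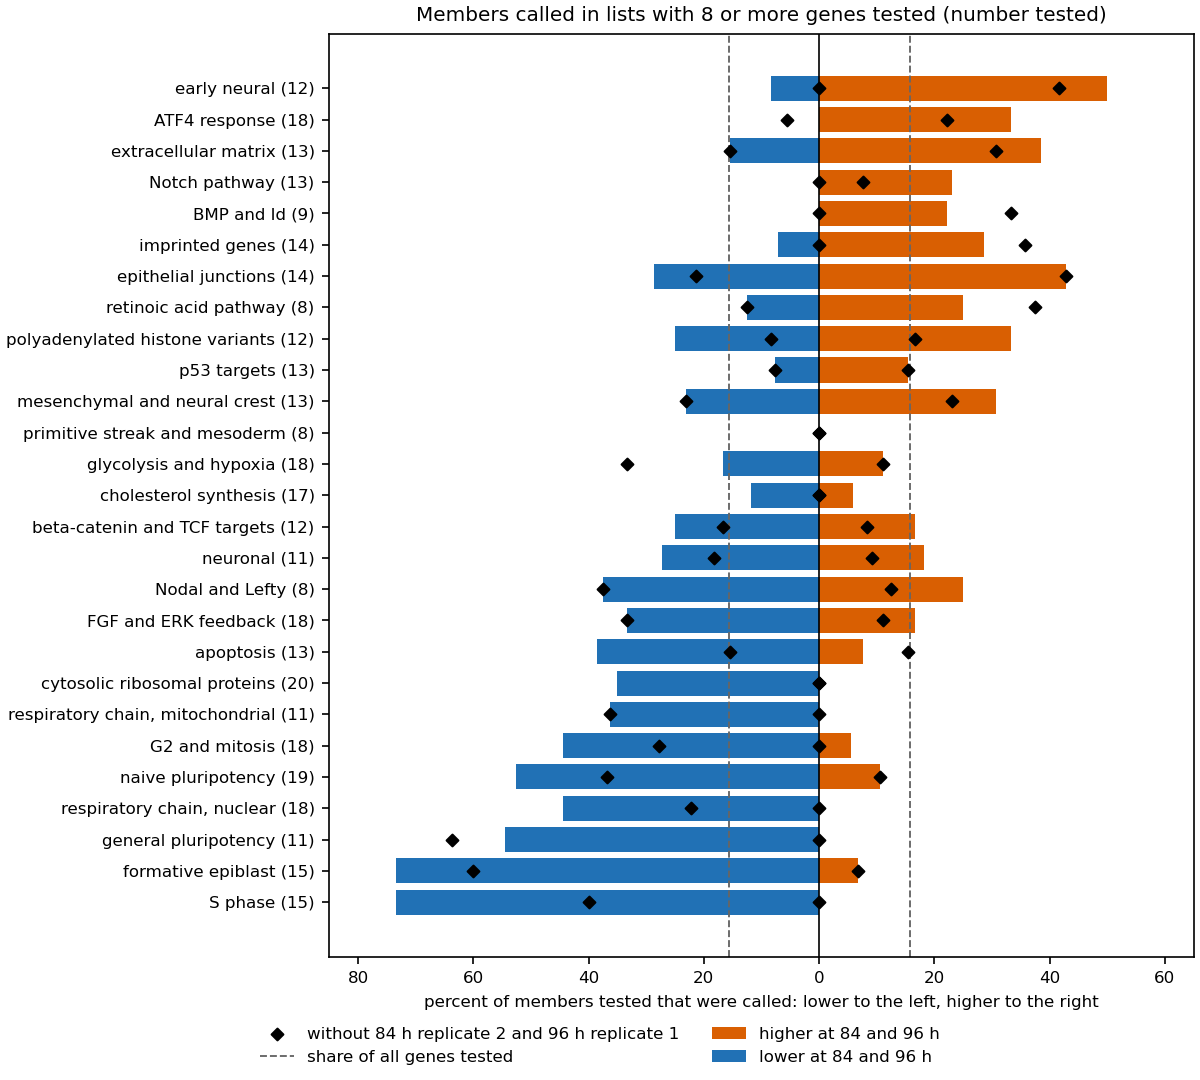
Percent of tested members called higher, for each list with 8 or more genes tested (orange, to the right), and called lower (blue, to the left), at 84 and 96 h, with the number tested after each name. Black diamonds give the same without 84 h replicate 2 and 96 h replicate 1, and dashed lines the shares over all genes tested, 15.7% higher and 15.6% lower. Of the lists drawn, S phase and formative reach farthest to the left and early neural farthest to the right, and the ribosomal protein bar has its diamond at 0.

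Targets of ATF4, the factor that raises amino acid synthesis and transport genes under stress, were higher in 6 of 18 tested and none was lower (median log2 change 0.33). Without the 2 libraries 4 were higher and 1 lower, and 3 and 2 were higher without 60 h replicate 2 and without 72 h replicate 2. ATF4 binds short elements of the CCAAT enhancer type in such promoters. To show what the members carry there, TGATGNAA was searched on both strands in the window from 250 bases before to 50 after each gene start in the RefSeq promoter table (GRCm38.p6). It occurs in 3.97% of all 32851 windows and, in any window of the gene, in 2.71% of the 9183 tested genes with one. Of 17 ATF4 genes with a window 7 hold it, among them Slc7a11 and Aars, which hold it at 2 places each and were not called. The 5 with a call in one of the comparisons are printed (Chac1 only in those of 96 with 84 h and between courses), each with the 8 letters in capitals inside 30 bases, 5′ to 3′ on the strand given:
Asns, chr6:7693214-7693243, minus strand: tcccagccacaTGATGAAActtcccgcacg
Atf3, chr1:191183425-191183454, plus strand: cgcggacttggTGATGCAAgtgcgagaagg
Vldlr, chr19:27216809-27216838, minus strand: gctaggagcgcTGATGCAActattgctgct
Trib3, chr2:152344028-152344057, plus strand: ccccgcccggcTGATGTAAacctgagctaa
Chac1, chr2:119351038-119351067, minus strand: cctggcaggagTGATGCAAcggcagggaag
A match is only a string of letters, and the windows of Ddit3 and Phgdh hold none. Of the genes called higher and lower with a window, 3.45% and 3.17% hold the string.

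Ddit3, which encodes the stress factor CHOP, rose most among the ATF4 genes, by 2.26 ± 0.18 on the log2 scale (adjusted p = 5e-11, edgeR). Ddit3 had 129 and 187 CPM at 84 h and 287 and 236 CPM at 96 h, against 19.5 and 20.1 CPM at 60 h and 106 and 74.5 CPM at 72 h. Mars and Gm4189 overlap it on the opposite strand. Vldlr, a lipoprotein receptor, had 21.3 and 20.01 CPM at 84 h and 31.1 and 22.7 CPM at 96 h, against 3.45 and 3.17 CPM at 60 h and 11.3 and 11.5 CPM at 72 h. Asns, asparagine synthetase, had 58.02 and 62.3 CPM at 84 h and 68.9 and 77.3 CPM at 96 h, against 36.02 and 37.5 CPM at 60 h and 61.1 and 44.6 CPM at 72 h. Ddit3 and Vldlr kept their call in all alternatives. Trib3, a pseudokinase induced by CHOP and ATF4, had 81.4 and 148 CPM at 84 h and 64.8 and 44.2 CPM at 96 h, against 44.5 and 34.9 CPM at 60 h and 71.6 and 72.9 CPM at 72 h. Trib3 was thus highest in 84 h replicate 2 and lower again at 96 h, and neither it nor Atf3 or Phgdh was called without the 2 libraries. Atf4 itself had 1111 and 1353 CPM at 84 h and 861 and 820.5 CPM at 96 h, against 931 and 883 CPM at 60 h and 950.1 and 1074 CPM at 72 h and did not pass the test (adjusted p = 0.656).

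Markers of other cell types were mostly low or not called. Of 4 primitive endoderm genes tested Col4a1 alone was called, and Gata4 and Sox7 had no count in the later libraries. None of 5 trophectoderm genes was called (edgeR), and 1 was called lower without 84 h replicate 1 or 96 h replicate 1 and 1 higher without 84 h replicate 2. No 2-cell-like gene passed the filter on low counts. Fibroblast markers were higher in 3 of 6 tested (Acta2, Tagln and Col1a2) and none was lower. The 10 fibroblast markers summed to 21.7 to 96.1 CPM in the later libraries and 14.4 to 20.4 CPM in the earlier ones. The defining collagen Col1a1 did not pass the test (-0.15), and Col3a1, Lum, Postn and S100a4 had at most 5 counts in either group of 4 libraries. The part of fibroblast-like cells in the rise of the contractile genes was not tested. Of 7 germline markers tested Dazl and Stk31 were lower and Sycp3 was higher, and Sycp3 was not called without 60 h replicate 1, 72 h replicate 2, 84 h replicate 2 or 96 h replicate 2.

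Between 84 and 96 h themselves 457 of 11761 genes differed (3.89%), 220 higher and 237 lower at 96 h. The count was 106 without the 2 libraries, 196 without 84 h replicate 2, 221 without 96 h replicate 2, 301 without 96 h replicate 1, 93 by DESeq2 and 1 in a fit of these 4 libraries alone. Genes of ERK signalling and of the formative state were among the falls, including Fgf4 (-3.02, adjusted p = 1.79e-06), Spry4 (-4.08), Etv4 (-2.05), Etv5 (-1.59), Pou3f1 (-1.75), Dnmt3b (-1.24) and Lef1 (-1.58), as log2 differences by edgeR. Utf1 (-1.74), L1td1 (-1.89) and Pou5f1 (-2.17) were lower at 96 h too. Pou5f1 was highest in 84 h replicate 2, with 176 CPM, so the size of its difference depends on that library. DESeq2 called neither Pou5f1 nor Spry4. Among the rises were Sox1 (1.88), Slc2a3 (1.86), Bmp7 (2.25), Cldn4 (2.11), Tbx3 (2.93), Acta2 (3.20) and Tagln (3.15). None of the genes named here was called in the fit of the 4 libraries at 84 and 96 h alone. Without the 2 libraries that stood apart 1 library is left at each time, so that fit is a weak check of these differences. For Dnmt3l (-0.39, adjusted p = 0.539) and Tdgf1 (-1.08, adjusted p = 0.458) no difference between 84 and 96 h was detectable at this depth.

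The last comparison asks whether the change at 84 h, against 60 and 72 h, was the same in the 2iL course as in the 2i course; the courses share no library. Of 11761 genes 154 differed, 126 with the change higher in the 2iL course (1.07%) and 28 with it lower (0.238%). Without the 2 libraries 92 differed. Removing single libraries gave 80 without 2iL 84 h replicate 2, 94 without 2iL 72 h replicate 2, 380 without 2iL 84 h replicate 1, and, in the 2i course, 102 without 60 h replicate 1, 90 and 97 without 72 h replicates 1 and 2, and 65 and 63 without 84 h replicates 1 and 2. DESeq2 called 44. The 8 genes with the smallest p among well measured genes all differed in the same way, with the change higher in the 2iL course. They kept their call in all alternatives.

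Stmn4 differed by 3.83 ± 0.46 on the log2 scale (adjusted p = 1.24e-05, edgeR). In the 2iL course Stmn4 had 1.53 and 1.58 CPM at 60 h, 20.1 and 12.6 CPM at 72 h and 27.7 and 33.4 CPM at 84 h, and in the 2i course 32.8 and 31.7 CPM at 60 h, 13.9 and 15.4 CPM at 72 h and 9.08 and 8.84 CPM at 84 h. Its level thus climbed in the 2iL course over the hours in which it declined in the 2i course. Trib3 differed by 2.85 ± 0.35. In the 2iL course Trib3 had 44.5 and 34.9 CPM at 60 h, 71.6 and 72.9 CPM at 72 h and 81.4 and 148 CPM at 84 h, and in the 2i course 93.6 and 97.8 CPM at 60 h, 47.5 and 51 CPM at 72 h and 16.2 and 23.8 CPM at 84 h. Ddit3 differed by 2.37 ± 0.30, with 19.5 and 20.1 CPM at 60 h, 106 and 74.5 CPM at 72 h and 129 and 187 CPM at 84 h in the 2iL course and 198 and 226 CPM at 60 h, 198 and 184 CPM at 72 h and 149 and 143 CPM at 84 h in the 2i course. At 84 h the courses were close in Ddit3, and the difference lies in where they stood at 60 and 72 h. Sema3e (2.53), the G protein subunit gene Gng3 (2.09), the zinc finger gene Cxxc5 (1.81), the progenitor marker Prom1 (1.59) and Atf5 (1.99), a relative of Atf4, differed likewise. Sema3e, Ddit3, Gng3, Cxxc5, Prom1 and Atf5 overlap an annotated gene on the opposite strand.

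Of 18 ATF4 genes 6 differed, all with the change (not the level) higher in the 2iL course, against 1.07% of all genes. Beside Trib3 and Ddit3 these were Chac1 (3.13), an ATF4 target that degrades glutathione, Mthfd2 (1.17) and Psat1 (0.93), enzymes of one-carbon and serine metabolism, and Atf4 itself (0.94), as log2 differences. Of 25 alternatives, Chac1 kept its call in 24, Mthfd2 in 11, Psat1 in 10 and Atf4 in 12. Chac1 had 8.81 and 3.7 CPM at 60 h, 19.3 and 15.7 CPM at 72 h and 25.6 and 25.02 CPM at 84 h in the 2iL course and 14.2 and 17.4 CPM at 60 h, 4.43 and 9.27 CPM at 72 h and 3.24 and 2.21 CPM at 84 h in the 2i course. Trib3, Ddit3 and Chac1 were also called without 84 h replicate 2 and 96 h replicate 1, and Mthfd2, Psat1 and Atf4 were not (adjusted p of 0.41, 0.293 and 0.181). In the 2iL course 84 h replicate 2 was the highest of these 6 libraries for Ddit3, Trib3, Mthfd2 and Atf4. Of the 103 genes with a higher change in the 2iL course and a promoter window, 8 hold TGATGNAA (7.77%), against 2.71% of the genes tested. Trib3 and Chac1, members of the ATF4 list, are among these 8, and the difference between the shares was not tested.

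Other list genes were called in this comparison as well. Sox1 had 1.15 and 2.64 CPM at 60 h, 10.1 and 5.77 CPM at 72 h and 29.3 and 36.7 CPM at 84 h in the 2iL course and 71.4 and 62.4 CPM at 60 h, 180.5 and 159.9 CPM at 72 h and 194 and 223 CPM at 84 h in the 2i course, a difference of 2.12 on the log2 scale: it was high in the 2i course already at 60 h. Dnmt3b had 1994 and 1941 CPM at 60 h, 2014 and 2077 CPM at 72 h and 1622 and 1309 CPM at 84 h in the 2iL course and 855 and 903 CPM at 60 h, 343 and 365 CPM at 72 h and 166 and 172 CPM at 84 h in the 2i course (1.27). Pou5f1 differed by 2.597, with 74.7 and 94.02 CPM at 60 h, 59.5 and 61.4 CPM at 72 h and 62.3 and 176 CPM at 84 h in the 2iL course and 42.2 and 42.99 CPM at 60 h, 14.6 and 24.7 CPM at 72 h and 13.6 and 2.76 CPM at 84 h in the 2i course, and was not called without the 2 libraries that stood apart or without 84 h replicate 2 alone. Of 14 epithelial junction genes 5 differed, all with the change higher in the 2iL course, and they were called without the 2 libraries as well. Cdh1 kept its call in 16 of 25 alternatives. The call was lost by DESeq2 and when any 1 of 8 libraries was left out, among them both 2i libraries at 84 h. The 5 were Cdh1 (1.15), Epcam (1.29), Esrp1 (1.75), Cldn3 (2.06) and Cldn7 (1.84). Cdh1 had 1038 and 871 CPM at 60 h, 859 and 1014 CPM at 72 h and 850.1 and 507 CPM at 84 h in the 2iL course and 535 and 734 CPM at 60 h, 334 and 333 CPM at 72 h and 167 and 131 CPM at 84 h in the 2i course. Of the 28 genes with a lower change in the 2iL course, Hes5 (-3.02), Crabp1 (-2.43), Crabp2 (-1.95), Mest (-1.60) and Fn1 (-1.15) are list members. Without the 2 libraries Crabp2 (adjusted p = 0.0965) and Fn1 (adjusted p = 0.246) were not called. They kept their call in 16 and 13 of 25 alternatives. Hes5 had 3.06 and 3.17 CPM at 60 h, 5.03 and 6.82 CPM at 72 h and 7.98 and 5.003 CPM at 84 h in the 2iL course and 9.32 and 2.56 CPM at 60 h, 75.4 and 79.6 CPM at 72 h and 313 and 226 CPM at 84 h in the 2i course. Crabp1, a retinoic acid binding protein, had 18.4 and 25.9 CPM at 60 h, 23.9 and 24.1 CPM at 72 h and 21.8 and 54.5 CPM at 84 h in the 2iL course and 29.3 and 22.01 CPM at 60 h, 286 and 338 CPM at 72 h and 952 and 655 CPM at 84 h in the 2i course. At 60 h Sox1 was thus already higher and Dnmt3b already lower in the 2i course than in the 2iL course, and a difference in change and a difference in timing cannot be told apart here.

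**Figure D5:**
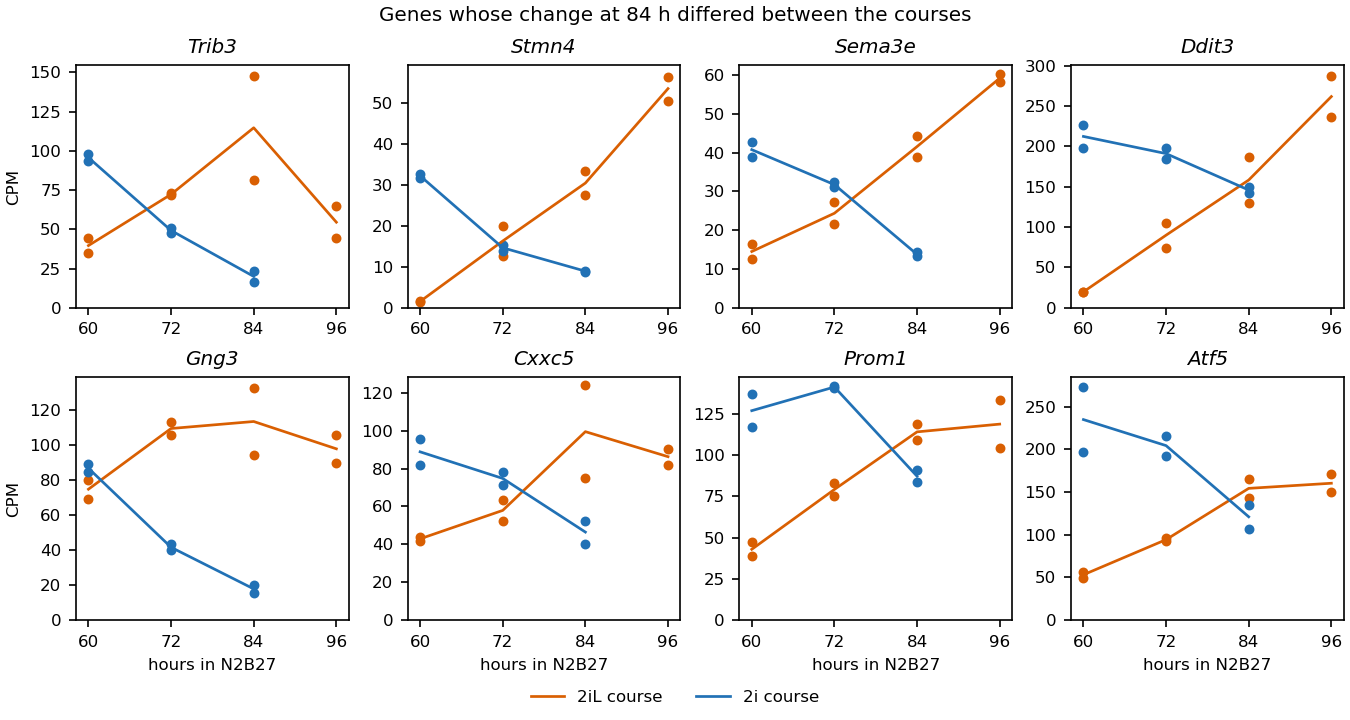
Level in CPM (linear scale from 0) at 60 to 96 h of the 2iL course (orange) and 60 to 84 h of the 2i course (blue). The 8 genes are those whose change at 84 h differed between courses with the lowest p-values. Points are libraries and lines join group means. In all 8 panels the 2iL line is higher at 84 h than at 60 h and the 2i line is lower at 84 h than at 60 h.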

How the data were processed

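Poly(A) RNA of mouse embryonic stem cells was sequenced from the 3' end (NEGEDIA Digital mRNAseq, per the labels). Per the submitters' processing notes, bcl2fastq, STAR 2.6.0a, HTSeq and mm10 were used. The annotation release and the strand setting are not given in the sources used here. The deposited count files hold whole read counts per gene, not normalized, 1 per library, with tallies of reads outside genes that were kept out of library sizes. The authors also deposited CPM per gene, which equal the counts per library scaled to a common total (largest difference 4.7e-10) and were not used in tests. Symbols and coordinates come from GENCODE M21, and 30934 of 31053 identifiers have a symbol.

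Counts of all 32 libraries in 16 groups went into 1 fit of edgeR 4.0.16 in R 4.3.3 (filterByExpr, TMM factors, quasi-likelihood test, 16 residual degrees of freedom, common dispersion 0.0215). The Benjamini-Hochberg adjustment covered 11761 genes, and genes under 0.05 are called higher or lower. CPM printed in the text are TMM-scaled. The contrasts were the mean of 84 and 96 h minus that of 60 and 72 h of the 2iL course, 96 h minus 84 h, and 84 h minus the mean of 60 and 72 h in the 2iL course minus the same in the 2i course. Alternatives were other scaling factors, filters, sets of libraries, a replicate block, each library left out, and DESeq2 1.42.0.

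Named genes are members of 34 lists (450 genes, 379 tested), the 12 largest rises and 12 largest falls among called genes with a mean log2 CPM of at least 3 and no overlap between the later and earlier libraries, and the 8 genes of smallest p in the course comparison at the same level. The lists and members were chosen with earlier results of these data known. The contractile, lysosomal and germline and testis lists were written after values had been seen. At a count of 0 the limit is 3 counts.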

Additional observations from a re-analysis of the deposited data

Results flagged for a closer look

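Between the 2iL and 2i courses 154 genes had a change at 84 h, against 60 and 72 h, that differed by the interaction term of the edgeR fit. Named by the rule of smallest p, the log2 differences, 2iL course minus 2i course, were 2.85 for Trib3, 3.83 for Stmn4, 2.53 for Sema3e, 2.37 for Ddit3, 2.09 for Gng3, 1.81 for Cxxc5, 1.59 for Prom1 and 1.99 for Atf5. Each of the 8 was higher at 84 h than at 60 h on average in the 2iL course and lower in the 2i course. All 8 kept their call in all 25 alternatives run. The groups of 2 libraries are too small for a search for single libraries far from their group by Dixon's criterion, so none was made.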

How the results depend on the processing

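The 24 genes named for the largest changes kept direction and call in all 526 of 526 combinations of gene and alternative, and the 8 genes of the course comparison in 200 of 200. Of the other list genes, 8481 combinations gave the same verdict, 825 lost the call and 235 gained one. One reversed: Pkm was called lower without the 4 libraries that stood apart anywhere in the series, with a log2 change of -0.337 (adjusted p = 0.0481), against 0.24 and no call with all libraries.

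The comparison of 84 and 96 h with 60 and 72 h called 3676 genes. It called 2284 (1068 higher and 1216 lower) without 84 h replicate 2 and 96 h replicate 1 and 1770 (508 lower) by DESeq2. Lower genes numbered 1179 with DESeq2's size factors, 959 in the 2iL course only and 1138 in a fit of the 8 libraries alone. Leaving out 1 library at a time gave 2640 to 3883 genes, 1304 to 1841 higher and 1293 to 2042 lower. Between 96 and 84 h the count was 155 in the 2iL course only, 1 in the compared libraries alone, 106 without the 2 libraries, 298 without the 4 libraries that stood apart, 93 by DESeq2 and 196 to 626 with 1 library left out. The difference between courses called 92 genes without the 2 libraries, 44 by DESeq2 and 63 to 380 with 1 library left out.

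The libraries share replicate numbers, but the labels state no pairing. Replicate differences correlated across genes at -0.403 between 84 and 96 h and at -0.1 to 0.159 between the other times. These values cannot show whether libraries were paired. A fit with the replicate number as a block over all libraries called 3639, 432 and 150 genes in the 3 comparisons. A replicate block within the compared libraries alone called 1942 genes (1075 higher and 867 lower) between later and earlier libraries and 4 between 96 and 84 h. With the pairing crossed at 84 and 96 h, chosen after seeing the data, the block gave 2350 genes (1136 higher and 1214 lower) and 687. Upper quartile scaling over all 32 libraries was not run, since the upper quartile of the shallow library is 0. Without that library, chosen after seeing the data, it gave 2078 higher and 1619 lower.

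With 1466548 to 2574259 counts a library, 3 counts are 1.17 to 2.05 CPM before TMM factors, so levels near or under that rest on few counts. Also, 2 libraries a time limit what a single time can show. The cause of the changes between alternatives was not tested.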

Other observations

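A set of germline and testis genes was lower at 84 and 96 h. The list of 33 was written after some of its members (Rpl10l, Rpl39l, Tex19.1, Hsf2bp and others) had been seen among the falls, so it is a description. How many had been seen was not recorded, so the share called lower was partly fixed by that choice. In the germline marker list above, which shares members with this one, 2 of 7 tested were lower and 1 was higher. The members named count among the falls below, and over all genes tested 15.6% were lower and 15.7% higher. Of 25 tested, 17 were lower and 2 higher, with a median log2 change of -1.62, and the same 17 were called lower without 84 h replicate 2 and 96 h replicate 1. Hsf2bp, which serves meiotic recombination, had 40.5 and 27.8 CPM at 84 h and 15.5 and 13.9 CPM at 96 h, against 150.2 and 179 CPM at 60 h and 76.2 and 73.5 CPM at 72 h. Tdrd12, a tudor protein of the piRNA pathway, had 12.8 and 14.4 CPM at 84 h and 6.75 and 9.96 CPM at 96 h, against 50.96 and 61.8 CPM at 60 h and 30.99 and 30.4 CPM at 72 h. Dazl, an RNA-binding protein of germ cells, had 3.73 and 2.78 CPM at 84 h and 0 and 0.399 CPM at 96 h, against 7.28 and 11.1 CPM at 60 h and 5.86 and 3.15 CPM at 72 h. Levels of Hsf2bp and Tdrd12 fell from one time to the next, and the groups do not overlap. The germ cell helicase Ddx4 and the piRNA factor Tdrd1 did not pass the test, with log2 changes of -0.22 and 0.05. Sycp3 and Tdrd5, the 2 called higher, were not called without the 2 libraries. Leaving out 60 h replicate 1, 72 h replicate 2, 84 h replicate 2 or 96 h replicate 2 removed both rises, and leaving out 60 h replicate 2 or 84 h replicate 1 removed 1.

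Of 34 lysosomal genes listed after Hexa, Neu1, Asah1, Cln6 and Dpp7 had been seen among the rises, 32 were tested, 17 were higher and none was lower (edgeR, and none lower by DESeq2), with a median log2 change of 0.61. Of these, 15 were called higher without the 2 libraries as well, and 15 to 21 were higher over all alternatives, with 1 lower without 84 h replicate 1. Hexa, a subunit of beta-hexosaminidase, had 47.9 and 57.3 CPM at 84 h and 196 and 151 CPM at 96 h, against 20.3 and 22.7 CPM at 60 h and 43.5 and 37.2 CPM at 72 h. Neu1, a sialidase, had 22.9 and 22.8 CPM at 84 h and 70.2 and 71.7 CPM at 96 h, against 11.1 and 11.6 CPM at 60 h and 20.5 and 20.99 CPM at 72 h. Grn, progranulin, and the protease gene Ctsd rose by 1.04 and 0.52 on the log2 scale. For Hexa and Neu1 both 96 h libraries lay well above both 84 h libraries. Hexa, Neu1, Asah1, Cln6 and Dpp7, seen before the list was written, count among its 17 rises. Over all genes tested 15.7% were higher.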
